A study of Mus musculus with 6 samples.

Results

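Mouse medulloblastoma cells that carried the guide sgMiat-6 were compared with cells that carried the control guide sgGal4-4, by RNA-seq, in 4 of the 6 libraries of the series (2 for each guide). The other 2 libraries come from cells with a second guide against Miat, sgMiat-96, and served to find what sgMiat-6 moved that sgMiat-96 moved less or not at all. All cells are labelled as stem-like medulloblastoma cells of cerebellar origin, and all carry Math1-Cre; SmoM2, so the controls share the active Smoothened allele. The sgGal4-4 cells are labelled WT and both Miat groups Miat knockdown. The labels do not state whether replicates were separate cultures or whether a guide's cells came from 1 clone, nor do they name the Cas9 form, so p-values measure only the spread between these libraries. Levels are given as CPM, read counts scaled to a common library size after adjusting for library composition. A gene is called at an adjusted p under 0.05 in edgeR's quasi-likelihood test with Benjamini-Hochberg adjustment over 13219 genes, and all adjusted p-values come from that test.

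Miat is a long noncoding RNA of the nucleus, known from heart, retina and the developing nervous system. Math1-Cre acts in granule neuron progenitors of the cerebellum, and SmoM2 keeps the Hedgehog pathway active there without its ligand, which gives tumours of the Hedgehog type of medulloblastoma. Sustained Hedgehog signalling drives these progenitors to divide and holds back their maturation into granule neurons.

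Miat itself, on chromosome 5 (GRCm38, 112213228 to 112228948), had 140 and 139 counts in the 2 sgGal4-4 libraries, a mean of 7.13 ± 0.120 CPM (SD, n = 2). It had 0 counts in both sgMiat-6 and both sgMiat-96 libraries, so with sgMiat-6 it was at least 94.5-fold lower when both libraries together are given a floor of 3 counts. The labels match the targeted gene in every library. The tested genes nearest to Miat did not share this fall. Crybb1, a lens crystallin gene whose model begins 25.6 kb away, stood at 0.361 and 0.659 CPM in the control and at 0.595 and 0.306 CPM in sgMiat-6 cells. Tpst2, which encodes a protein tyrosine sulfotransferase 47.7 kb away, had a log2 fold change of 0.29 (adjusted p = 0.0599), and Tfip11, a splicing factor gene 97.4 kb away, one of 0.24 (adjusted p = 0.101). On the other side the nearest tested gene was Mn1, 756 kb away, at 0.412 and 0.709 CPM in the control. It rose by 2.09 on the log2 scale with sgMiat-6 (adjusted p = 0.00116) and by 2.62 with sgMiat-96 (adjusted p = 9.89e-05).

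The libraries held between 18438909 and 19650274 counts, and 3 counts correspond to 0.149 to 0.173 CPM. Of 4 defining microglial markers, Cx3cr1 had 0 counts in all libraries and P2ry12, Aif1 and Ptprc at most 4 in any. Of 3 endothelial markers, Cldn5 was at 0 in all, Pecam1 had 3 and 15 counts in the control and 1 and 0 with sgMiat-6, and Cdh5 had 16 and 29 and then 1 and 4. Over their whole lists, 20 microglia and macrophage genes summed to 63.8 and 64.9 CPM in the control, 71.9 and 72.4 CPM with sgMiat-6 and 93.9 and 98.6 CPM with sgMiat-96, and 19 endothelial genes to between 15.1 and 19.6 CPM in every library. Atoh1, the granule progenitor factor also called Math1, was at 0 in all 6 as well. Zic1, another factor of that lineage, was at 48.2 and 53.2 CPM in the control, 96.9 and 115 CPM with sgMiat-6 and 105 and 115 CPM with sgMiat-96. Neurod1 was at 1.70 and 1.72, 6.50 and 7.30, and 4.27 and 4.91 CPM in that order, and Barhl1 had at most 4 counts in any library. The 30 granule neuron lineage genes summed to 981 and 1098 CPM, 995 and 1038 CPM, and 981 and 1058 CPM. Summed over 26 genes, astrocyte and radial glia markers were at 6183 and 6395 CPM in the control, 3596 and 3605 CPM with sgMiat-6 and 3835 and 3951 CPM with sgMiat-96. The 23 oligodendrocyte lineage genes summed to 2228 and 2312 CPM, 3456 and 3583 CPM, and 5136 and 5252 CPM in the same order, while their defining markers Sox10, Mbp and Mog had at most 6 counts in any library. The 21 fibroblast and pericyte markers summed to 403 and 424 CPM in the control, 158 and 167 CPM with sgMiat-6 and 218 and 223 CPM with sgMiat-96. Of their defining markers, Dcn and Pdgfrb had at most 3 counts in any library. Col1a1 had 189 and 150 counts in the control, 16 and 5 with sgMiat-6 and 4 and 17 with sgMiat-96. In bulk RNA, fewer cells of a type and less RNA per cell cannot be told apart, and the part of these markers in the results that follow was not tested.

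Against the control, sgMiat-6 cells had 7007 genes called of the 13219 tested (53.0%), of which 3557 were higher (26.9%) and 3450 lower (26.1%). Changes of at least 2-fold among them numbered 1139 higher (8.62%) and 1443 lower (10.9%). The same model gave 9014 called genes (68.2%) for sgMiat-96, which shares the control libraries, 1979 of them higher and 2214 lower (16.7%) by at least 2-fold. Directly compared, in a contrast in which the controls cancel, the guides differed at 4851 genes (36.7%): 2490 were higher (18.8%) and 2361 lower (17.9%) in sgMiat-6 cells, and by at least 2-fold 452 (3.42%) and 276 (2.09%). Without sgMiat-96 replicate 1 the 2490 higher and 2361 lower calls became 488 and 636, and without sgMiat-6 replicate 1 they became 1112 and 1139. Scaling by total counts alone moved the median of all genes in this contrast from -0.01 to 0.14 and the split to 3721 higher and 1380 lower.

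Genes moved more by sgMiat-6 were taken as those called with at least a 2-fold change against the control, called in the same direction against sgMiat-96, and with a sgMiat-96 change under 0.5 times as large or of the other sign. There were 155 of them (1.17% of genes tested), 58 higher (0.439%) and 97 lower (0.734%) in sgMiat-6 cells. Because these values chose the genes, what follows for the 155 is a description. At the edges of the rule, St6gal1 is just inside, with a sgMiat-96 change 0.494 times that of sgMiat-6, and Xkr5 just outside at 0.501. Ciart is just inside the fold limit at a log2 fold change of -1.001 and Vgf just outside at -0.994. For 38 of the 58 higher genes and 49 of the 97 lower genes sgMiat-96 was not called against the control at all, and 3 higher and 2 lower genes were called in the opposite direction there. Over all genes and with no fold limit, opposite calls numbered 21 with sgMiat-6 higher (0.159%) and 23 with sgMiat-6 lower (0.174%). The median log2 fold change of the higher genes was 1.38 with sgMiat-6 and 0.33 with sgMiat-96, and that of the lower genes -1.59 and -0.48. The 155 genes lie on 20 chromosomes. Leaving out sgMiat-96 replicate 1 left 28 higher and 36 lower genes in the rule, and leaving out sgMiat-6 replicate 1 left 25 and 59.

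Transcript length moved with these comparisons. Between the guides, the median log2 fold change ran from -0.51 in the decile of shortest transcripts (median 736 bp) to 0.50 in the decile of longest transcripts (median 7630 bp), and for sgMiat-6 against the control from 0.32 to -0.36. Replicates of 1 guide also differed by length: across genes, the log2 difference between replicates had a Spearman correlation with length of 0.54 for sgMiat-6, -0.56 for sgMiat-96 and 0.20 for sgGal4-4 (a description over 10362 genes averaging 5 CPM or more, which share their libraries). The higher genes of the rule had a median length of 3934 bp and the lower genes of 1904 bp, beside 2844 bp for all genes tested. With the length trend taken out of each library, the rule held 38 higher and 59 lower genes, of which 25 and 43 are among the 58 and 97 above. Of these, 7 higher and 16 lower genes also stayed in the rule with each library left out in turn, among them Sostdc1, Slc6a11, Ltbr, Mical1, Plcd1, Prrx1, Itm2c, Tex264, A2m, Sirt6, Wnt4, Gstm6 and Atp1b1. The part of length in the other changes was not tested.

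**Figure D1:**
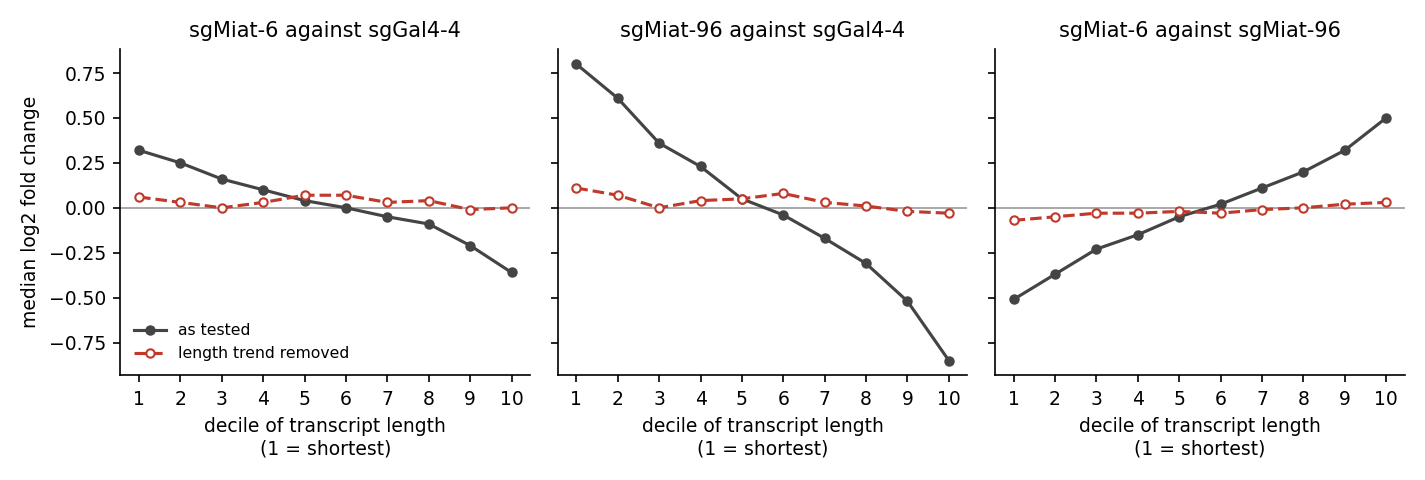
Median log2 fold change (y axis) in deciles of transcript length (x axis, 1 is the shortest) for the 3 contrasts, as tested (filled points) and with the length trend of each library removed (open points). The contrast between the guides runs from -0.51 to 0.50 as tested and from -0.07 to 0.03 with the trend removed.

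Ltbr and Plcd1 had counts nearly or wholly lost with sgMiat-6, Itm2c, an abundant RNA, fell by about 2-fold, and Slc6a11 rose. The promoters of these 4 genes, on which the results turn, are shown as the 250 bases before the gene start (RefSeq, GRCm38.p6). They lie at chr6:125313886-125314135 (minus strand), chr9:119093503-119093752 (minus strand), chr1:85894260-85894509 (plus strand) and chr6:114130991-114131240 (plus strand), and capitals mark CG pairs.
Ltbr: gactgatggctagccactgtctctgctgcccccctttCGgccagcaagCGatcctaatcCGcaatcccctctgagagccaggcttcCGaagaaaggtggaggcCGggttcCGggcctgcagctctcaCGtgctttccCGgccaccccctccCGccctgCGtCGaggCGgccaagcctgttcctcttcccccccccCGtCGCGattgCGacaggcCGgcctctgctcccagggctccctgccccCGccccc
Plcd1: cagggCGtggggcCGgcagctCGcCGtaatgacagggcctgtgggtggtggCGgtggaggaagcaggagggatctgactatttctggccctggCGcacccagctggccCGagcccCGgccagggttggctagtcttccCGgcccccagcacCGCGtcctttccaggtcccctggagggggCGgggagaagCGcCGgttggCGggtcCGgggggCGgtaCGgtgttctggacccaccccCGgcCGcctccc
Itm2c: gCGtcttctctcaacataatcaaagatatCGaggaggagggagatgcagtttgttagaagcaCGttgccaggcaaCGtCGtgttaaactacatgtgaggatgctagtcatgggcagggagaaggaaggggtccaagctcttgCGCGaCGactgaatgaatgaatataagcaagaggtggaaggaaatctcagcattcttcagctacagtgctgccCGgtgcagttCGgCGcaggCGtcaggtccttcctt
Slc6a11: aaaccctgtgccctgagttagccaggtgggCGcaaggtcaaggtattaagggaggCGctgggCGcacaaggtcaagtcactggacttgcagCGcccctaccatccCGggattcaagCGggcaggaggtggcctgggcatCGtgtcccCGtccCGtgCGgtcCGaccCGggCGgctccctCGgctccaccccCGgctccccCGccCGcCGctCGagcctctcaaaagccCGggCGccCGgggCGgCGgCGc
These windows hold 18, 20, 12 and 25 CG pairs in that order, beside a median of 16 over the 10401 tested genes with a promoter in the table. The GC box GGGCGG, read on both strands, is in the windows of Ltbr, Plcd1 and Slc6a11 and in 60% of all windows, and the E-box CACGTG is in that of Ltbr and in 8.47% of all. The search also took TATAAA, TGACGTCA and TGANTCA, which are in none of the 4. Only 43 of the 58 higher and 69 of the 97 lower genes have an entry, which is under 80% of either set. The 10401 genes with an entry are likewise under 80% of the 13219 tested. A comparison of promoter content over the sets is therefore void.

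Ltbr and Mical1 were nearly lost with sgMiat-6 and kept at a low level with sgMiat-96. Ltbr, which encodes the lymphotoxin beta receptor of the TNF receptor family, was at 42.1 and 41.2 CPM in the control, at 0.0496 and 0.153 CPM in sgMiat-6 cells and at 3.37 and 4.21 CPM in sgMiat-96 cells. Mical1, an enzyme that oxidises actin and takes filaments apart, went from 47.0 and 46.1 CPM to 0.0992 and 0.204 CPM, and stood at 4.44 and 5.83 CPM with sgMiat-96. For both genes the 3 groups did not overlap, and sgMiat-96 lay between the control and sgMiat-6. The log2 fold change with sgMiat-6 was -8.60 ± 0.30 (SE) for Ltbr and -8.21 ± 0.28 for Mical1. Against sgMiat-96 the log2 differences were -5.15 ± 0.40 (adjusted p = 2.27e-05) and -5.03 ± 0.36 (adjusted p = 1.42e-05).

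Plcd1, a phospholipase C that cleaves the membrane lipid PIP2, was at 7.78 and 7.80 CPM in the control and at 0 counts in both sgMiat-6 libraries, at least 103-fold lower. It was still present with sgMiat-96, at 1.63 and 1.10 CPM, at least 18.1-fold above sgMiat-6. The row kept for Plcd1 is a noncoding RefSeq transcript of the gene, so these values are those listed for that transcript. Prrx1, a homeobox factor of mesenchyme, fell from 17.9 ± 1.44 CPM (SD, n = 2) to 0.496 and 0.408 CPM, beside 3.65 and 3.64 CPM with sgMiat-96. These 4 genes stayed in the rule with length removed and without any single library.

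Pax9 and Runx1, transcription factors of pharyngeal and blood development, were also at 0 counts in both sgMiat-6 libraries. Pax9 had been at 10.5 and 9.22 CPM in the control and was at 0.393 and 0.289 CPM with sgMiat-96. Runx1 had been at 6.08 and 5.17 CPM and was at the same 0.393 and 0.289 CPM with sgMiat-96. So both were almost lost with either guide, and the difference between the guides rests on 12 counts per gene in sgMiat-96 cells. Without sgMiat-96 replicate 1 that difference was no longer called (adjusted p = 0.0529 for Pax9 and 0.0585 for Runx1). Ackr3, a scavenging receptor for the chemokine CXCL12, and Steap3, an iron reductase, were at 0 in sgMiat-6 cells and at or below 0.231 CPM in sgMiat-96 cells. Their difference between the guides was lost without any 1 of the 4 Miat libraries (adjusted p from 0.0543 to 0.125 for Ackr3 and from 0.0775 to 0.145 for Steap3), and for Steap3 also without either control library (0.053 and 0.0549). Of the 97 lower genes, 8 had 0 counts in both sgMiat-6 libraries.

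**Figure D2:**
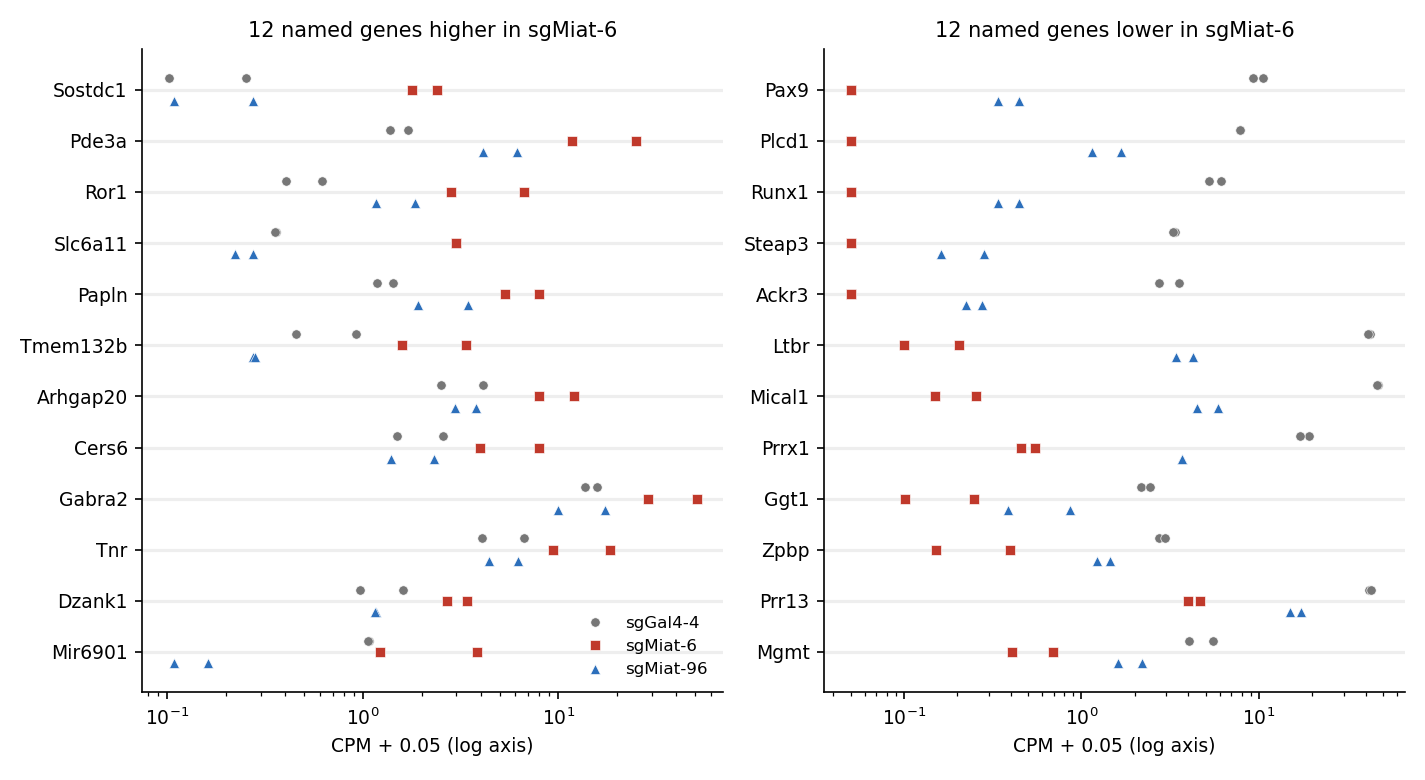
Level in each of the 6 libraries (x axis, CPM plus 0.05 on a log axis) of 12 genes of the rule per direction, in sgGal4-4 (grey circles), sgMiat-6 (red squares) and sgMiat-96 (blue triangles). The genes rank highest by the smaller of their absolute log2 fold changes against the control and against sgMiat-96. Genes under 2 CPM in the highest group and predicted genes, clones and pseudogenes are left out. On the right, 5 genes have 0 counts in both sgMiat-6 libraries, and sgMiat-96 lies between the other 2 groups for each of the 12. On the left, Pde3a, Ror1 and Papln are raised by sgMiat-96 too.

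A second group of genes fell in part, from levels that were well measured. Itm2c, a membrane protein of the BRICHOS family that is abundant in neural cells, was at 796 and 758 CPM in the control, 363 and 386 CPM with sgMiat-6 and 716 and 603 CPM with sgMiat-96. Its log2 fold change with sgMiat-6 was -1.05 ± 0.11 (adjusted p = 5e-06), and with sgMiat-96 it was -0.24 and not called (adjusted p = 0.0704). Tex264, a receptor that hands endoplasmic reticulum to autophagy, went from 46.7 and 45.0 CPM to 11.3 and 16.1 CPM, and both sgMiat-96 libraries were close to 36 CPM (36.1 and 36.2). Its sgMiat-6 libraries lie below all others, with a log2 difference from sgMiat-96 of -1.40 ± 0.16 (adjusted p = 0.00029).

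A2m, the secreted protease inhibitor alpha-2-macroglobulin, had the following levels: 29.2 and 27.5 CPM in the control, 10.6 and 9.85 CPM with sgMiat-6, and 28.5 and 29.3 CPM with sgMiat-96. The log2 fold change with sgMiat-96 was 0.03, and the difference between the guides was -1.50 ± 0.14 (adjusted p = 0.000109). With the length trend removed sgMiat-96 stood at 0.42 and the difference at -1.74. Sirt6, a chromatin deacylase that acts at telomeres and in DNA repair, fell from 7.93 and 7.90 CPM to 1.74 and 1.84 CPM, with 6.01 and 5.31 CPM in sgMiat-96 cells. Atp1b1, the beta subunit of the sodium pump, fell from 105 and 109 CPM to 43.2 and 42.7 CPM, with 80.0 and 73.5 CPM in sgMiat-96 cells. The models of Atp1b1 and Nme7 overlap, as do those of Ang and Rnase4 among the higher genes, and without stated strand their reads cannot be told apart.

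Wnt4, a Wnt ligand, moved in opposite directions. It was at 5.05 and 5.37 CPM in the control, lower with sgMiat-6 at 2.13 and 1.58 CPM and higher with sgMiat-96 at 8.09 and 7.21 CPM. The log2 fold changes were -1.48 ± 0.25 (adjusted p = 0.000253) and 0.55 (adjusted p = 0.0354), with a difference of -2.04 ± 0.24 (adjusted p = 0.000351). The glutathione transferases Gstm2 and Gstm6 fell together. Gstm6 was at 3.40 and 3.39 CPM in the control, 1.69 and 1.63 CPM with sgMiat-6 and 4.16 and 4.10 CPM with sgMiat-96. Gstm2 had the values 3.04 and 3.45, 1.19 and 0.868, and 4.05 and 2.60 CPM, and its difference between the guides was not called without sgMiat-96 replicate 1 (adjusted p = 0.0601). Reads may be shared within this gene family. Gstm1, a family member with far more counts, rose with sgMiat-6 from 150 and 158 CPM to 304 and 339 CPM.

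**Figure D3:**
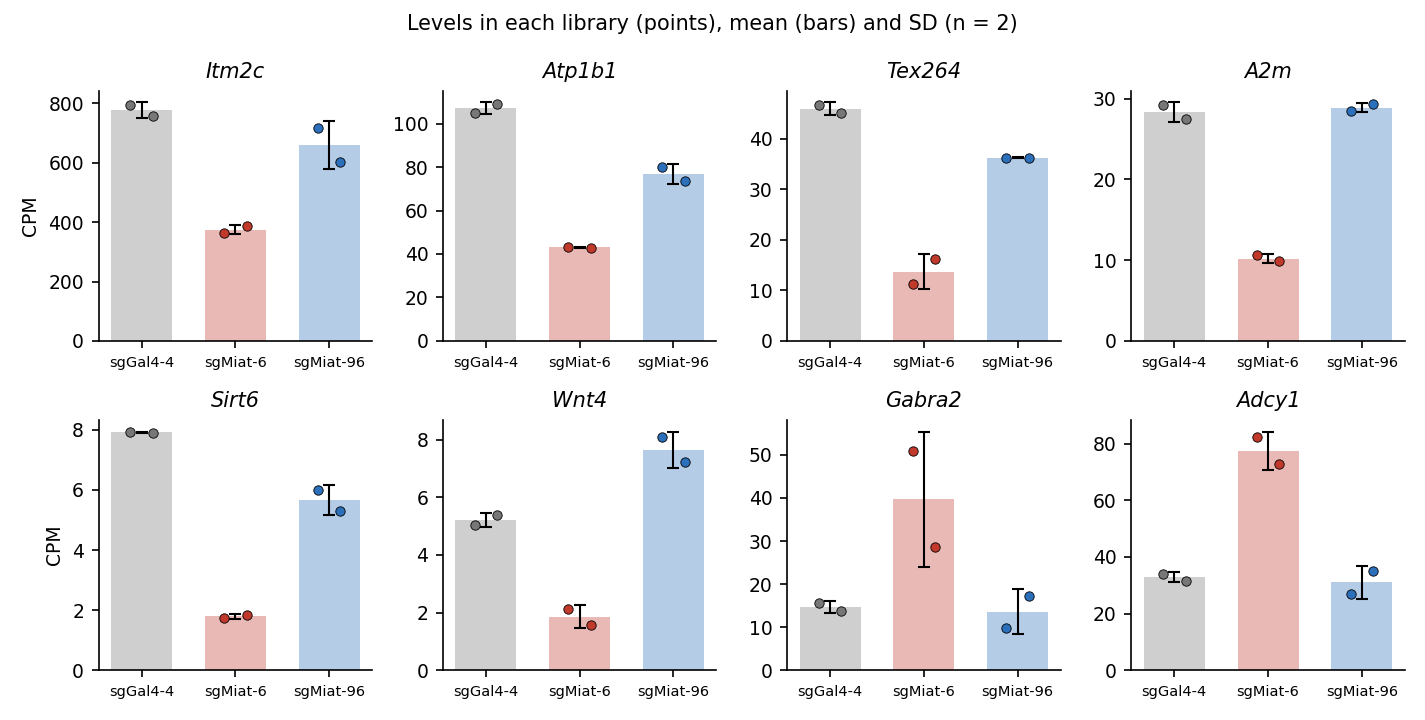
CPM (y axis, from 0) of 6 genes that were lower and 2 that were higher in sgMiat-6 cells, with each library as a point, the mean as a bar and the SD as a line (n = 2). In each panel the 2 sgMiat-6 libraries lie apart from the other 4, and for A2m, Gabra2 and Adcy1 the sgMiat-96 mean is near the control mean.

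Sostdc1 and Slc6a11 were raised with sgMiat-6 and were not called with sgMiat-96 against the control. Sostdc1, a secreted antagonist of BMP and Wnt ligands, was near the detection limit in the control (0.0515 and 0.203 CPM) and with sgMiat-96 (0.225 and 0.0577 CPM), and reached 1.74 and 2.35 CPM with sgMiat-6. Slc6a11, a GABA transporter of astrocytes, was at 0.309 and 0.304 CPM in the control, 2.93 and 2.96 CPM with sgMiat-6 and 0.225 and 0.173 CPM with sgMiat-96. For both genes the control and sgMiat-96 libraries were alike within a few counts and the sgMiat-6 libraries stood above them. The log2 differences from sgMiat-96 were 3.78 ± 0.62 for Sostdc1 (adjusted p = 0.00129) and 3.84 ± 0.46 for Slc6a11 (adjusted p = 0.000381).

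Gabra2, the alpha 2 subunit of the GABA-A receptor, was at 15.7 and 13.7 CPM in the control, 50.8 and 28.6 CPM with sgMiat-6 and 9.89 and 17.3 CPM with sgMiat-96. It rose by 1.43 ± 0.26 on the log2 scale with sgMiat-6 (adjusted p = 0.000551), although the 2 sgMiat-6 libraries differ widely. Without sgMiat-6 replicate 1 both calls held, but Gabra2 left the rule. Adcy1, the calcium-stimulated adenylyl cyclase of neurons, rose from 34.1 and 31.6 CPM to 82.3 and 72.7 CPM and was at 26.9 and 35.2 CPM with sgMiat-96. Its transcript is 12258 bp long, and with the length trend removed its change with sgMiat-96 became 1.04 beside 1.75 with sgMiat-6, outside the rule. Sorl1, a sorting receptor that binds the amyloid precursor protein, had 3 counts over both control libraries, 72 with sgMiat-6 and 9 with sgMiat-96. The ratio of sgMiat-6 to the control was 23.6 (95% interval 7.77 to 117, Clopper-Pearson, counting error only).

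Further named genes rose with sgMiat-6 while sgMiat-96 changed them by less than 0.2 on the log2 scale: Cers6, a ceramide synthase, by 1.57, and Tnr, the matrix protein tenascin-R, by 1.38. For both, the difference between the guides was not called without sgMiat-96 replicate 1 (adjusted p = 0.0975 for Cers6 and 0.102 for Tnr) or without sgMiat-6 replicate 1 (0.0819 and 0.0795). Vcam1, a cell adhesion molecule induced by NF-kB, rose from 9.12 and 7.85 CPM to 25.8 and 19.8 CPM (adjusted p = 9.53e-05) and stood at 14.1 and 9.23 CPM with sgMiat-96. Nrp2, a receptor for class 3 semaphorins, Peg10, an imprinted retrotransposon-derived gene, and Dscam, a neuronal adhesion molecule, rose with sgMiat-6 by 1.48, 1.19 and 1.85. With the length trend removed they left the rule, since sgMiat-96 then stood at 1.25, 1.17 and 1.36 beside 1.76, 1.47 and 2.19 with sgMiat-6. The phosphodiesterase gene Pde3a and the Wnt5a receptor gene Ror1 left it too, as did, among lower genes, Cebpb, Hes1 and Junb.

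Gene groups were read by their counts and medians, beside those of all genes. The lists were ranked for the text by the size of their median between the guides and by their number of genes in the rule. The medians given for them are therefore a description. Against the control, 26.9% of all genes were higher and 26.1% lower with sgMiat-6, and 34.0% and 34.2% with sgMiat-96. Between the guides 18.8% of genes were higher and 17.9% lower, and with length removed 11.3% (1491) and 13.3% (1764), with a median of -0.02. Of 13 tested receptor and synthesis genes for GABA, glycine and acetylcholine, 5 were higher and 4 lower with sgMiat-6 (median -0.28). With sgMiat-96, 2 were higher and 8 lower (median -0.92). With length removed the medians against the control were -0.15 and -0.47, so the list as a group fell less with sgMiat-6 rather than rose. Between the guides 6 were higher in sgMiat-6 cells and 0 lower, with a median of 0.55 (all genes -0.01), and with length removed 5 and 1, with a median of 0.47. Gabra2 is 1 of them. Gabrg1, the gamma 1 subunit of the GABA-A receptor, fell with both guides, from 40.8 and 45.3 CPM to 24.8 and 18.2 CPM with sgMiat-6 and to 7.65 and 6.29 CPM with sgMiat-96. Chrm3, a muscarinic acetylcholine receptor, rose with sgMiat-6 from 59.5 and 55.1 CPM to 100 and 83.5 CPM and was at 49.2 and 65.4 CPM with sgMiat-96 (difference 0.68, adjusted p = 0.00406). Gabrg1 and Chrm3 were picked after their values were seen.

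Cadherins and delta protocadherins, which bind neighbouring cells to each other, included 10 genes higher and 9 lower of 26 with sgMiat-6 (median 0.27) and 6 higher and 12 lower with sgMiat-96 (median -0.19). Against sgMiat-96, 14 were higher in sgMiat-6 cells and 0 lower (median 0.52). These transcripts are long (median 7042 bp), and with length removed 8 were higher and 1 lower (median 0.20). Pcdh17 and Cdh13, also picked after their values were seen, were called in that contrast with length removed as well (adjusted p = 0.00764 and 0.0014). Cdh13 was at 42.8 and 40.6 CPM in the control, 68.0 and 55.1 CPM with sgMiat-6 and 31.8 and 39.7 CPM with sgMiat-96.

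Of 66 genes of G2 and mitosis, 9 were higher and 24 lower (median -0.15), beside 14 and 34 with sgMiat-96 (median -0.31), and 23 were higher and 11 lower in sgMiat-6 than in sgMiat-96 cells. With length removed these were 16 and 3. Of 58 genes of G1/S and DNA replication, 32 were higher and 3 lower with sgMiat-6 (median 0.34) and 33 and 8 with sgMiat-96 (median 0.35), and their median between the guides was -0.01. Ccnd1, the cyclin D1 gene and a Hedgehog target of granule progenitors, rose from 925 and 894 CPM to 2294 and 2077 CPM with sgMiat-6 and to 1815 and 1870 CPM with sgMiat-96, and the guides' difference of 0.25 was not called (adjusted p = 0.073). Of 56 DNA repair genes 20 were higher and 1 lower in sgMiat-6 than in sgMiat-96 cells, and with length removed 4 and 1, a smaller share than among all genes in either direction. Among them the end-joining kinase gene Prkdc went from a difference of 0.59 to -0.03.

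Several metabolic groups were lower in sgMiat-6 than in sgMiat-96 cells. Of 28 glycolysis genes, 13 were higher and 11 lower with sgMiat-6 than in the control (median 0.34). Between the guides 3 were higher and 15 lower (median -0.38), and 1 and 15 with length removed. The glucose transporter gene Slc2a1 was at 21.8 and 19.8 CPM in the control, 71.8 and 63.5 CPM with sgMiat-6 and 109 and 97.9 CPM with sgMiat-96, so all 3 groups were apart. Of 37 Nrf2 and glutathione genes, 1 was higher and 19 lower between the guides (median -0.41), and 1 and 14 with length removed (median -0.19). Ftl1, the ferritin light chain gene, picked after its values were seen, rose with sgMiat-6 from 1779 and 1796 CPM to 3165 and 3860 CPM and with sgMiat-96 to 6825 and 5634 CPM. Among 49 genes of lysosomes and autophagy, 28 were higher and 7 lower with sgMiat-6 than in the control, and 1 was higher and 20 lower than with sgMiat-96 (2 and 19 with length removed). Ctsf, which encodes cathepsin F, was in the rule: 17.4 and 16.3 CPM in the control, 7.09 and 9.14 CPM with sgMiat-6 and 24.1 and 23.8 CPM with sgMiat-96.

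Groups of short transcripts were lower in sgMiat-6 than in sgMiat-96 cells. Of 82 genes for cytosolic ribosomal proteins, sgMiat-6 raised 66 and lowered 1 (median 0.48), and 77 stood lower than with sgMiat-96 (median -0.68). With length removed 40 were lower and the median was -0.20. Of 66 nuclear genes of oxidative phosphorylation, 46 were higher and 3 lower than in the control, and their median between the guides went from -0.49 to -0.05. The median transcript lengths of these groups were 682 and 686 bp.

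Of 28 immediate early genes, 18 were lower and 5 higher with sgMiat-6 (median -0.87), and 17 and 6 with sgMiat-96 (median -0.52). Between the guides 2 were higher and 7 lower, as also with length removed, but 6 and 4 when libraries were scaled by total counts. Junb, an AP-1 subunit, was at 18.9 and 17.2 CPM in the control, 5.85 and 8.52 CPM with sgMiat-6 and 12.4 ± 0.835 CPM (SD, n = 2) with sgMiat-96. Of 41 genes of Atf4 and the amino acid response, 38 were lower and 0 higher with sgMiat-6 (median -1.06). Their median between the guides was -0.05, and 5 were higher and 9 lower. Cebpb, a transcription factor of that list and 1 of its 2 members in the rule, was at 72.6 and 62.7 CPM in the control, 19.6 and 26.2 CPM with sgMiat-6 and 44.8 and 43.9 CPM with sgMiat-96.

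**Figure D4:**
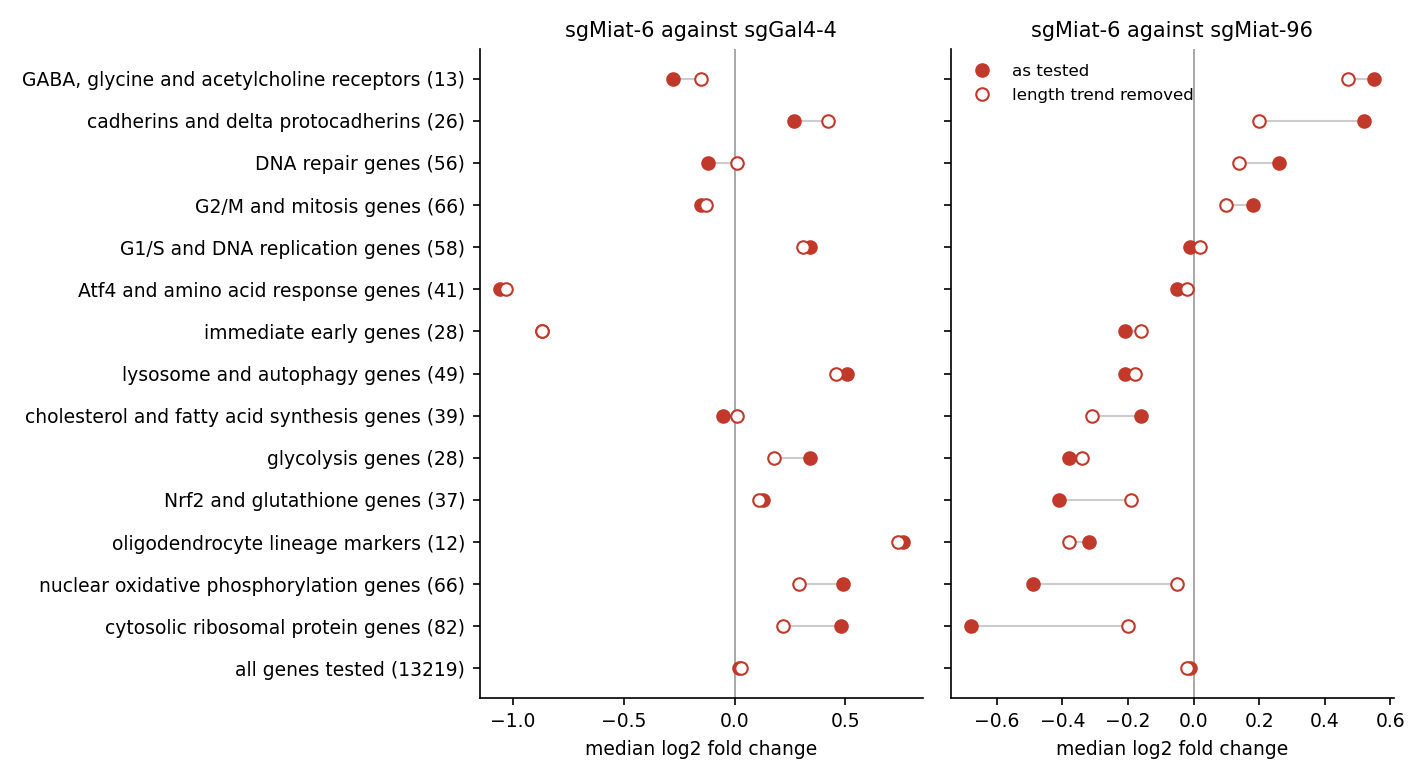
Median log2 fold change (x axis) of the tested members of 14 gene lists and of all genes (number tested in brackets), for sgMiat-6 against sgGal4-4 (left) and against sgMiat-96 (right), as tested (filled) and with the length trend removed (open). The GABA, glycine and acetylcholine list stays at 0.47 or above between the guides, and the oxidative phosphorylation list goes from -0.49 to -0.05.

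By chromosome, over genes averaging 5 CPM or more, those of chromosomes 1 and 15 had medians of -0.45 and -0.43 in sgMiat-6 cells against the control, and chromosome 5, which holds Miat, one of 0.23. All other chromosomes lay between -0.06 and 0.12. With sgMiat-96 the medians of chromosomes 1 and 15 were -0.49 and -0.38, and between the guides no chromosome was beyond -0.16 or 0.16. Of the 155 genes of the rule, 18 are on chromosome 1 and 8 on chromosome 15, with Itm2c, Prrx1 and Atp1b1 among those of chromosome 1. Of the genes averaging 5 CPM or more, 608 are on chromosome 1 and 417 on chromosome 15. Chromosome 11 has the most, 861, and holds 11 genes of the rule. The rule itself sets no such limit on level. The part of these chromosomes in single genes was not tested.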

How the data were processed

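Libraries were made with an mRNA kit from 1 µg of total RNA, per the labels' protocols. The submitters' processing notes name STAR and the GRCm38 (mm10) build. Versions, the counting tool, strandedness and the gene annotation were not given in the sources used here. The deposited files list a count, an FPKM and a TPM per RefSeq transcript, per the file headers. The authors' counts were tested, the deposited FPKM was used only for transcript lengths and for zeros, and the authors' TPM was not used. Of 33984 rows for 24063 symbols, the row with the highest total count was kept per symbol. In sgMiat-96 replicate 2, 11223 rows listed at 1 count with an FPKM of 0 were set to 0.

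Counts were tested with edgeR 4.0.16 (limma 3.58.1, R 4.3.3) after filterByExpr and TMM scaling, in 1 model of 3 groups over 6 libraries with 3 residual degrees of freedom. The biological coefficient of variation was 0.0986. CPM are TMM-scaled, and a standard error is the absolute log2 fold change divided by the square root of F. Between replicates the chi-square per gene was 4.12, 19.1 and 14 for sgGal4-4, sgMiat-6 and sgMiat-96, which exceeds sampling noise. There are 44 symbols whose counts equal those of another symbol in every library. Floors are 3 counts over a group and cover counting error only.

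In simulated counts for 13000 genes, made for sgMiat-6 against sgGal4-4, the share of true changes called was 55.2% at 1.5-fold, 89.6% at 2-fold and 100% at 4-fold. False calls numbered 8 among 171. Changes were set in sgMiat-6 only, in 67 genes at 1.5-fold, 67 at 2-fold and 66 at 4-fold, with noise drawn independently per gene. In the libraries themselves 53.0% of genes were called and replicates differed by length. The simulation had neither, so its shares of true and false calls do not carry over to these data.

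Named were Miat, the 12 highest and 12 lowest genes under the rule with at least 2 CPM (no predicted genes, clones or pseudogenes), 4 per direction called in opposite directions by the guides, defining cell type markers and, per list, up to 4 genes of the rule and 2 others with the smallest adjusted p. The text describes some of these. The 12 per direction were ranked by the smaller of their absolute log2 fold changes against the control and against sgMiat-96. Genes of the rule outside this choice (Itm2c, Tex264, A2m, Sirt6, Atp1b1, Sorl1 and Adcy1) were taken for staying in it under the alternatives or for their levels, after their values were seen. The 52 gene lists and the rule were chosen with earlier results of these data known. Positions and promoters are from RefSeq on GRCm38.p6, in which 23873 symbols were placed. Alternatives were another scaling or none, DESeq2 1.42.0, filters on low counts, the counts as listed, a replicate block, removal of the length trend (loess, span 0.3), other limits of the rule and each library left out in turn. Python 3.11.15, pandas 2.3.3 and matplotlib 3.10.9 made tables and plots.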

Additional observations from a re-analysis of the deposited data

Results flagged for a closer look

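Some genes were called in opposite directions by the guides against the shared control, 21 higher with sgMiat-6 (0.159% of genes tested) and 23 lower (0.174%). Scarb1, the scavenger receptor that takes up cholesterol from HDL, differed most clearly: it was at 45.1 and 43.8 CPM in the control, 83.8 and 87.3 CPM with sgMiat-6 and 11.9 and 10.3 CPM with sgMiat-96, a log2 difference between the guides of 2.95 (adjusted p = 1.25e-07, edgeR). All 3 groups were apart, and the call held in each alternative run. Sned1, a matrix protein gene, differed by 2.63 and Mir6901, which lies within Sned1 so that their reads cannot be told apart, by 4.76. Sned1 was at 74.2 CPM in sgMiat-6 replicate 1 and 35.5 CPM in replicate 2, beside 29.3 and 24.7 CPM in the control. Without sgMiat-6 replicate 1 its rise over the control was 0.40 and not called (adjusted p = 0.254), and that of Mir6901 was 0.20 (adjusted p = 0.765). Zfhx2os, an antisense transcript, differed by 1.59, and its rise was not called without sgMiat-6 replicate 2 (adjusted p = 0.255) or sgGal4-4 replicate 1 (0.179).

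Of the genes lower with sgMiat-6 and higher with sgMiat-96, Wnt4 differed by -2.04 and Ctsf by -1.56, and both kept their sgMiat-6 calls, against the control and against sgMiat-96, in each alternative run. With the length trend removed, the rise with sgMiat-96 over the control was still called for Wnt4 (0.80, adjusted p = 0.00466, edgeR), and not for Ctsf (0.24, adjusted p = 0.139), Clec11a (0.62, adjusted p = 0.0734) or Ropn1l (-0.03, adjusted p = 0.922). Clec11a differed by -1.79 and Ropn1l by -1.32. Their falls with sgMiat-6 were not called with DESeq2 (adjusted p = 0.101 and 0.117), and that of Clec11a not without sgGal4-4 replicate 2 (0.247) or sgMiat-6 replicate 2 (0.179). The fall of Ropn1l was not called without any 1 of sgGal4-4 replicate 1 (0.072) or 2 (0.275), sgMiat-6 replicate 1 (0.146), or sgMiat-96 replicate 1 (0.0531) or 2 (0.053).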

How the results depend on the processing

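Counts of calls (higher, then lower) were 3557 and 3450 for sgMiat-6 against the control, 2490 and 2361 against sgMiat-96, and 58 and 97 for the genes moved more by sgMiat-6. Leaving out each library in turn gave 2561 to 3672 and 2577 to 3627, 488 to 3155 and 636 to 2584, and 25 to 76 and 36 to 108. Removing the length trend gave 1491 higher against sgMiat-96 and 38 and 59 genes in the rule. With scaling by total counts only, 1380 were lower against sgMiat-96 and 64 lower in the rule, and the split against the control was 3165 and 3714. DESeq2 gave 40 and 64 genes in the rule. A limit of 1.5-fold gave 140 and 178, and asking that sgMiat-96 be not called and under 0.5 in size gave 27 and 39. The cause of each shift was not tested. Of the named genes' results, 3 reversed, all against sgMiat-96 with length removed: Prkdc (-0.03), Cdon (-0.03) and Rpl9 (0.02). Over all alternatives 235 such results lost their call, 41 gained one and 4473 kept their side.

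The labels do not state that replicate numbers pair the libraries. Deviations of same-numbered libraries correlated at 0.06, -0.19 and -0.37 for control with sgMiat-6, control with sgMiat-96, and the guides. These deviations also followed transcript length, at 0.54 for sgMiat-6 and -0.56 for sgMiat-96, so the correlations cannot decide on pairing. With the replicate block the counts were 3240 and 3205, 2125 and 1919, and 48 and 81. Chosen after seeing the data, swapping the sgMiat-96 numbers gave 3874 and 3813, 2972 and 2784, and 57 and 109, and leaving out chromosomes 1 and 15 gave 3402 and 2767, 2255 and 2125, and 48 and 81. Genes under a few counts per library carry wide errors. In the simulated counts a 1.5-fold change was often missed at 2 libraries a group, but those shares do not carry over to these data.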
